A study of Vitis rotundifolia with 36 samples.

Results

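The genes described here are 150 gene models of muscadine grape (Vitis rotundifolia) whose messenger RNA was high in both inner layers of the Granny Val berry and low in its skin. They were taken from 26394 gene models. The level of a gene model is given in CPM, its count as a part of the library total, scaled to a total of 1000000 counts. A gene model could enter when its mean over the 3 Granny Val libraries was at least 10 CPM in layer 3 and in layer 4 and these means lay within 2-fold of each other, which 8329 gene models fulfilled. They were ranked by the lower inner mean over the higher skin mean, with 0.5 CPM added to each, and the first 150 were kept. Gene models 160 to 225 of chromosome 4 were left out by the same rule. Of these, 15 could have entered and 0 would have ranked among the 150. The members were thus selected on the measured Granny Val levels, so these are given as a description, and the tests use the cultivars Alachua and Supreme.

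RNA was sequenced from mature berries of 3 cultivars, each dissected into 4 layers with 3 libraries per layer, which makes 12 groups and 36 libraries. Alachua is purple with thick skin, Granny Val is green with intermediate skin, and Supreme is purple with thin skin; the labels give no treatment of the berries. The layers are numbered from the outside inwards. The protocol and the sample tags disagree on their names: layer 3 is mesocarp in the protocol and endocarp in the tags, and layer 4 is endocarp in the former and seed in the latter. Layers 1 and 2 (epidermis and hypodermis, or cuticle and exocarp) are therefore called skin here, layers 3 and 4 are called inner, and single layers go by number.

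The skin of a grape berry is a thin outer epidermis, sealed by a waxy cuticle, over a few layers of thick-walled cells that store pigment and tannin. The flesh beneath it is built of large, thin-walled cells that store sugar and organic acids in their vacuoles. In muscadine the skin is tough and slips off the pulp. The identifiers carry a chromosome and a running number but no gene name, and 0 of 26394 were found in the reference gene table, so the roles of the members and the tissue markers of each layer could not be looked up. In dissected tissue, fewer cells of a type and less RNA per cell cannot be told apart.

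Library totals ran from 19057538 to 61782400 counts, and a count of 0 is compatible with up to 3 counts at 95% confidence, or 0.0486 to 0.157 CPM. That limit covers counting error only. The labels do not say that replicates came from separate plants, clusters or extractions, so p-values measure the spread between these libraries, which may be partly technical. Several libraries stood apart from their labels, judged by 1385 gene models higher in layer 1 and 283 higher in the inner layers of Granny Val, none of them a member. By the mean level of these sets, 17 of the 24 Alachua and Supreme libraries lay nearest their labelled position and 7 did not. Alachua layer 2 replicate 3 lay nearest the inner layers, Alachua layer 3 replicate 1 nearest layer 1, and Alachua layer 4 replicates 2 and 3 nearest layer 2. The remaining 3 stayed within the skin: Alachua layer 1 replicate 1 lay nearest layer 2, Supreme layer 1 replicate 1 nearest layer 2 and Supreme layer 2 replicate 1 nearest layer 1. The 4 that crossed between skin and inner layers are all from Alachua. Results are given with and without these 7 libraries. The inner set was chosen for the same contrast in Granny Val as the members, so leaving libraries out by it favours the pattern and is no independent check. The other set, higher in layer 1, likewise favours a difference between layers 1 and 2.

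In Granny Val the median member had 1.08 CPM in layer 1, 1.92 in layer 2, 48.2 in layer 3 and 43.5 in layer 4. The layer 3 means ran from 11.8 to 1756 CPM, and the layer 2 means from 0 to 215 CPM. Some members were therefore abundant in the skin as well and stood out by ratio alone. The ratio used by the rule had a median of 9.17 and ran from 3.21 to 320, against a median of 0.868 over the 8329 gene models that could have entered. Within the inner layers, 95 members had the higher mean in layer 3 and 55 in layer 4. Within the skin, 109 had the higher mean in layer 2 and 39 in layer 1. Members with at least 10 CPM in each of the 6 inner Granny Val libraries numbered 99, and 35 stayed under 1 CPM in each of the 6 skin libraries.

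The highest ratio belonged to evm.model.chr8.1049, at 610, 814 and 396 CPM in Granny Val layer 3 and 965, 342 and 119 CPM in layer 4 (replicates 1, 2 and 3). Its skin libraries reached at most 2.17 CPM. The second, evm.model.chr5.233, had 493, 720 and 188 CPM in layer 3 and 565, 320 and 136 CPM in layer 4. In both, the lowest inner library stood far above the highest skin library. At the lower edge, the last member, evm.model.chr1.1640, had Granny Val means of 1.14, 30.6, 116 and 99.2 CPM in layers 1 to 4 and a ratio of 3.21. The first gene model outside, evm.model.chr5.474, had 1.99, 16.5, 53.8 and 55.5 CPM and a ratio just below that, so no gap separates the list from the gene models that follow it. Which models made the list also changed when 1 replicate of every layer was left out. Without Granny Val replicate 1 of each layer, 85 of the 150 would still have been chosen, without replicate 2, 118, and without replicate 3, 116.

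The most abundant member was evm.model.chr1.1991, with a mean of 712 CPM over the 36 libraries, or 7.85% of the summed level of all members. In Granny Val it stood at 2313, 1364 and 1591 CPM in layer 3 and 2469, 593 and 624 CPM in layer 4. In Supreme it stood at 1910, 2196 and 2635 CPM in layer 3 and 2350, 859 and 1813 CPM in layer 4. Its highest skin library in these 2 cultivars was Supreme layer 2 replicate 3, at 106 CPM, so skin and inner libraries did not overlap in either cultivar. In Alachua they did. Layer 3 had 3.89, 1507 and 1622 CPM, layer 4 had 488, 14.9 and 10.8 CPM, and layer 2 had 46.7, 25.9 and 863 CPM.

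All 20 chromosomes held members. Chromosome 8 held 17, chromosome 1 held 16, and chromosomes 11 and 18 held 14 each. Relative to the gene models that could have entered, chromosome 11 had the most, 3.41 per 100, and chromosome 4 the fewest, 0.821 per 100. Running numbers within 5 of another member's were found for 22 members (14.7%), in 9 runs of at most 3 members. No such share was computed for other sets of gene models, so whether 14.7% is high was not tested. In one run, on chromosome 8 between numbers 1610 and 1614, the 3 members averaged 349, 322 and 269 CPM over the 36 libraries and were among the 10 most abundant members. Neighbouring copies with near-identical sequence can share or lose reads, so the split of counts within such runs is uncertain.

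Summed over the 150 members, the level separated skin from inner libraries completely in Granny Val and in Supreme and not in Alachua. In Granny Val, the skin libraries held 1369, 899 and 1172 CPM in layer 1 and 2272, 1851 and 2099 CPM in layer 2. The inner libraries held 20319, 20632 and 18101 CPM in layer 3 and 24818, 16468 and 12759 CPM in layer 4. In Supreme, which had no part in choosing them, the members summed to 1361, 1034 and 789 CPM in layer 1 and 966, 2466 and 2336 CPM in layer 2. The inner libraries of Supreme held 15460, 18740 and 19350 CPM in layer 3 and 17024, 16376 and 13586 CPM in layer 4. Its skin mean was 1492 ± 729 CPM and its inner mean 16756 ± 2126 CPM (SD, n = 6 each). The members thus made up between 1.36% and 1.94% of all counts in the inner libraries of Supreme, and at most 0.247% in its skin.

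The Alachua libraries fell into 3 levels that crossed the labels. Layer 1 held 2378, 1056 and 815 CPM, layer 2 held 3529, 3723 and 19071 CPM, layer 3 held 863, 20201 and 19566 CPM, and layer 4 held 16398, 3501 and 3146 CPM. Layer 2 replicate 3 was as high as the inner libraries of the other cultivars. Layer 3 replicate 1 was as low as layer 1, and layer 4 replicates 2 and 3 were close to the other libraries of layer 2. These are the 4 Alachua libraries that crossed between skin and inner layers by the gene models outside the list. Part of those gene models were chosen for the same contrast in Granny Val, so the match is no independent check. With all libraries the skin mean of Alachua was 5095 ± 6953 CPM and the inner mean 10612 ± 9022 CPM (SD, n = 6 each). Without the 5 Alachua libraries out of place they were 2281 ± 1558 CPM (n = 4) and 18721 ± 2037 CPM (n = 3).

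**Figure D1:**
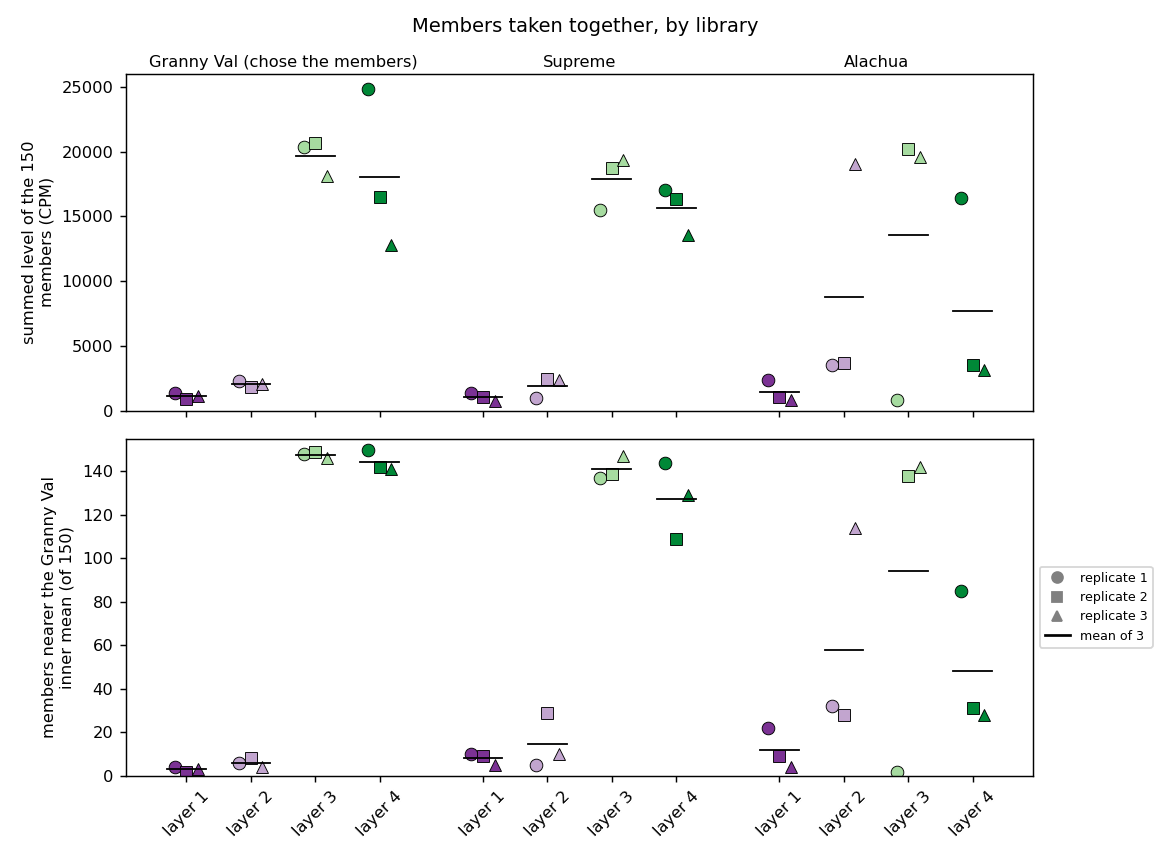
The upper panel shows the summed level of the 150 members in CPM for each library and the lower panel the number of members nearer the Granny Val inner mean than the skin mean, by cultivar and layer (marker shapes are replicates, bars the mean of 3). Skin and inner libraries are apart in Granny Val and Supreme, whereas Alachua layer 2 replicate 3 stands at 19071 CPM and Alachua layer 3 replicate 1 at 863 CPM.

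To see whether single members followed the sum, each library was placed, member by member, above or below the midpoint between the skin and inner means of Granny Val on the scale of log2(CPM + 0.5). In Granny Val itself the skin libraries had 2 to 8 members on the inner side and the inner libraries 141 to 150. In Supreme, layer 1 had 10, 9 and 5 members on the inner side and layer 2 had 5, 29 and 10. Layer 3 of Supreme had 137, 139 and 147, and layer 4 had 144, 109 and 129. Supreme layer 4 replicate 2 was thus the least complete of its inner libraries, with 41 members on the skin side. In Alachua, layer 1 had 22, 9 and 4 members on the inner side, layer 2 had 32, 28 and 114, layer 3 had 2, 138 and 142, and layer 4 had 85, 31 and 28.

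A pair of Alachua libraries were mixed, high for some members and low for others, and Supreme layer 4 replicate 2 was so in part. Of the 36 members on the skin side in Alachua layer 2 replicate 3, 34 (94.4%) were also on the skin side in layer 4 replicate 1, where they were 52.3% of 65. Supreme layer 4 replicate 2 had 41 members on the skin side. It shared 18 of them (43.9%) with Alachua layer 2 replicate 3 and 28 (68.3%) with the 65 of Alachua layer 4 replicate 1. The 65 members had a median Granny Val layer 2 mean of 0.409 CPM and a median ratio of 20.7, against 5.19 CPM and 6.43 for the other 85. The 65 also had the lower median in each inner layer of both other cultivars. In Granny Val it was 31.9 against 60.6 CPM in layer 3 and 28.4 against 62.3 CPM in layer 4. In Supreme it was 25.7 against 74.4 CPM in layer 3 and 16.9 against 66.5 CPM in layer 4. The members low in Alachua layer 4 replicate 1 thus tended to be those with the lower skin and inner levels and the larger ratio in Granny Val.

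A smaller group was on the inner side where the rest were not. Alachua layer 2 replicates 1 and 2 and layer 4 replicates 2 and 3 had between 28 and 32 such members each. Each pair of these libraries shared 22 to 27 of them, between 71.0% and 96.4% of a library's list. In all, 19 members were on the inner side in all 4 libraries, 21 in some and 110 in none. The 19 had a median mean of 9.45 CPM in layer 2 of Granny Val and 12.2 CPM in layer 2 of Supreme, while the 110 had 0.814 and 0.956 CPM. These groups were formed from the values themselves, so they are a description with no test.

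**Figure D2:**
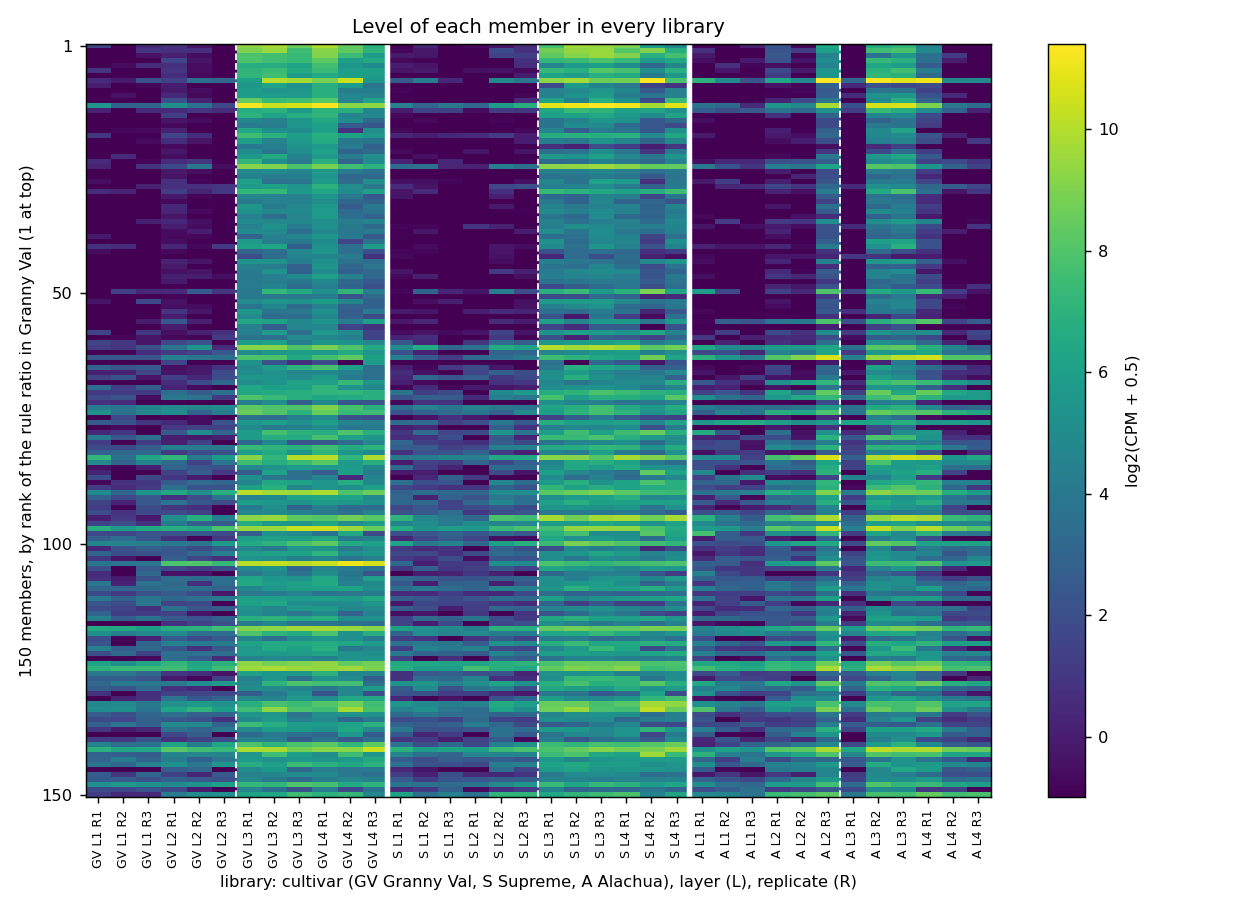
Each row is a member, ordered by its ratio in Granny Val with the highest at the top, each column is a library, and the colour gives the level as log2(CPM + 0.5). Solid lines part the cultivars and dashed lines part skin from inner layers. The Supreme columns follow the Granny Val order, and Alachua layer 2 replicate 3 is bright among skin columns while Alachua layer 3 replicate 1 and layer 4 replicates 2 and 3 are dark among inner ones.

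The first test asked whether the mean of the inner layers exceeded the mean of the skin in Supreme. Of the 150 members, 133 were higher in the inner layers and 0 were lower, against 6.06% of all 18704 gene models tested called higher and 8.83% called lower. Calls are from edgeR's quasi-likelihood test and require a Benjamini-Hochberg adjusted p under 0.05, taken over all gene models tested, and a change of at least 2-fold. The fitted difference was above 0 for all 150 members, 145 had an unadjusted p under 0.05 (35.2% of all gene models), and all 150 had passed the filter on low counts. The median log2 fold change was 4.26, or 19.2-fold, with quartiles of 3.00 and 7.84, while the median over all gene models was 0.02. Called members ran from 1.24 to 12.97 on the log2 scale. In 16 members all 6 skin libraries of Supreme had 0 counts, and a fitted fold change of such a member is no bound. With these set at their lower bound, the ratio of the inner to the skin mean CPM had a median of 16.4. DESeq2 called 143 higher (6.6% of gene models), and 145 were called without the libraries out of place (6.36% of gene models called higher).

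Separation library by library gave the same picture in Supreme. In 127 members every inner library lay above every skin library, which 6.77% of all gene models tested did. It was 131, against 8.31%, without the libraries out of place. The corresponding count in Granny Val, which the choice of members fixes in large part, was 137, against 3.87% of gene models, and nothing is read from it. Library names in the labels either begin with a number or do not. Within the Supreme libraries whose names begin with a number, the 6 skin libraries summed to between 789 and 2466 CPM and the 3 inner ones to between 17024 and 19350 CPM, and 143 members did not overlap, against 10.4% of gene models in the same 9 libraries. The other 3 Supreme libraries are all inner, at 13586 to 16376 CPM, so no such value exists for them. The 4 Alachua skin libraries whose names begin with a number held 815 to 19071 CPM and the 5 inner ones 863 to 20201 CPM. The other 2 Alachua skin libraries held 2378 and 3723 CPM and the other inner 1 held 19566 CPM. All the Alachua libraries that crossed between skin and inner layers have names that begin with a number. Whether the kind of name goes with the crossing was not tested.

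The largest called change in Supreme belonged to evm.model.chr11.622. Its inner libraries were at 39.4, 10.1 and 26.5 CPM in layer 3 and 24.2, 1.70 and 35.4 CPM in layer 4, and its 6 skin libraries all had 0 counts. The inner mean of 22.9 ± 14.6 CPM (SD, n = 6) was at least 2041-fold higher than the floor of 3 counts over the summed skin libraries, and its adjusted p was 0.012. In Granny Val its skin libraries reached 0.177 CPM at most and its inner libraries ran from 2.53 to 52.2 CPM. In Alachua it had 64.6 and 71.4 CPM in layer 3 replicates 2 and 3, 3.92 CPM in layer 4 replicate 1 and 6.02 CPM in layer 2 replicate 3, and 0 counts in the other 8 libraries. It was therefore near absent from skin in all cultivars except in the 1 Alachua layer 2 library that lay nearest the inner layers.

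The second was evm.model.chr13.724, at 19.7, 20.0 and 25.6 CPM in layer 3 and 19.0, 10.9 and 15.4 CPM in layer 4 of Supreme. All 6 skin libraries had 0 counts, so that the inner mean of 18.4 ± 4.95 CPM (SD, n = 6) was at least 1645-fold higher than the same floor (adjusted p = 0.0056). Its inner levels in Granny Val ran from 12.4 to 52.1 CPM. In Alachua it reached 19.4 and 14.4 CPM in layer 3 replicates 2 and 3, 3.10 CPM in layer 2 replicate 3 and 1.73 CPM in layer 4 replicate 1, and no other library passed 0.517 CPM.

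The 2 members with the highest ratios in Granny Val were spread widely over the inner libraries of Supreme. The level of evm.model.chr8.1049 was 205, 787 and 698 CPM in layer 3 and 513, 57.2 and 27.6 CPM in layer 4, while evm.model.chr5.233 had 424, 675 and 714 CPM in layer 3 and 284, 521 and 113 CPM in layer 4. In the skin of Supreme they reached at most 0.979 and 2.96 CPM. In Alachua their highest values were 147 and 227 CPM, both in layer 3 replicate 3, and both were at 0 counts in layer 3 replicate 1 and layer 4 replicates 2 and 3.

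Of the members, 17 were not called in Supreme, with adjusted p from 0.053 to 0.75. The fitted change was 2-fold or more in 16 of them, and 13 ranked below 75 by their ratio in Granny Val. The last member of the list, evm.model.chr1.1640, was one, with a log2 fold change of 1.01 (SE 0.63, adjusted p = 0.27). Its Supreme libraries were at 71.5, 11.3 and 20.4 CPM in layer 1, 12.1, 145 and 139 CPM in layer 2, 85.5, 138 and 181 CPM in layer 3, and 225, 23.9 and 74.3 CPM in layer 4. Skin and inner libraries overlapped over most of their range. The smallest change was that of evm.model.chr3.2034, named after its values were seen. It had 55.8 to 176 CPM in layer 3 and 54.4 to 122 CPM in layer 4 of Granny Val, but 5.33, 7.53 and 16.8 CPM in layer 3 and 25.6, 3.32 and 2.75 CPM in layer 4 of Supreme. The skin of Supreme had 3.24 to 18.9 CPM, and the log2 fold change was 0.35 (SE 0.65, adjusted p = 0.75). Without Supreme layer 4 replicate 1 it was -0.56 (adjusted p = 0.56). In Alachua it ran from 1.72 to 18.8 CPM, so its high inner level was seen in Granny Val libraries only; that contrast between cultivars was not tested.

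Members with a larger ratio in Granny Val tended to have a larger change in Supreme. Across the 150 members, the log2 ratio and the log2 fold change had a Pearson r of 0.78 and a Spearman rho of 0.80. Against Alachua without the libraries out of place they were 0.65 and 0.67. Genes are not independent replicates, and a low level in skin raises both measures, so these values are a description.

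**Figure D3:**
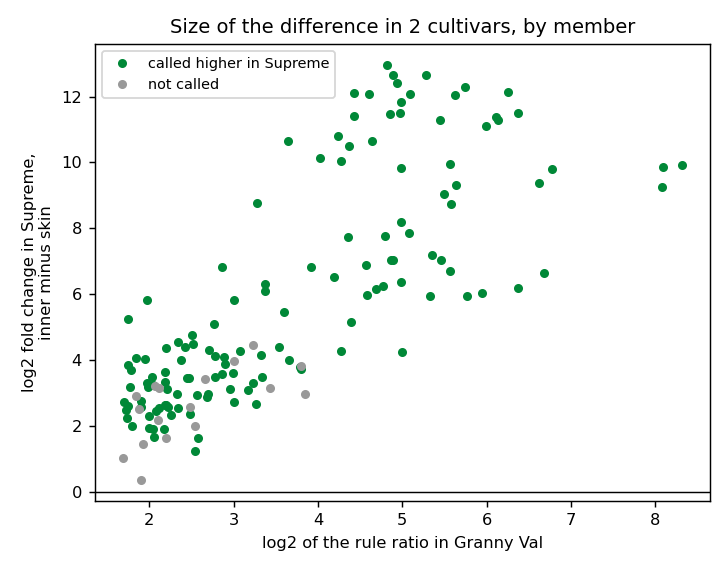
Each point is a member, placed by the log2 of its ratio in Granny Val and its fitted log2 fold change between the inner layers and the skin of Supreme (green, called higher; grey, not called). The 17 members not called lie below 4.5 on the vertical axis, and all 150 lie above 0.

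In Alachua the same contrast gave 0 called members, with 0% of all gene models called in that contrast. By unadjusted p under 0.05 there were 80 members, against 7.91% of gene models, and DESeq2 called 26 higher, against 0.609%. The fitted difference was above 0 for 145 of the 150, with a median log2 fold change of 2.05 (4.13-fold) against -0.01 over all gene models. Members whose inner libraries all lay above all skin libraries numbered 0, against 0.0214% of all gene models. Leaving out the libraries out of place, 127 members were called higher and 0 lower, against 4.16% of gene models called higher. The median log2 fold change was then 4.32 (19.9-fold) against 0 over all gene models, and 122 members did not overlap, against 10.6%. In 14 members the skin libraries that were left all had 0 counts. With these set at their lower bound, the ratio of the inner to the skin mean CPM had a median of 14.2. With all Alachua libraries that median was 2.80. The fit without the libraries out of place has 4 skin and 3 inner Alachua libraries. Layer 4 has 1 library, which is assumed to vary like the other groups. Libraries were left out by gene models chosen in part for the same contrast in Granny Val. That favours the pattern, so the change from the fit with all libraries is no independent check. Leaving out 1 library alone gave at most 2 calls, reached without Alachua layer 3 replicate 1. Members called higher in both cultivars with all libraries numbered 0, and 133 were called in Supreme alone, but calls in one cultivar and not in the other do not show a difference.

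**Figure D4:**
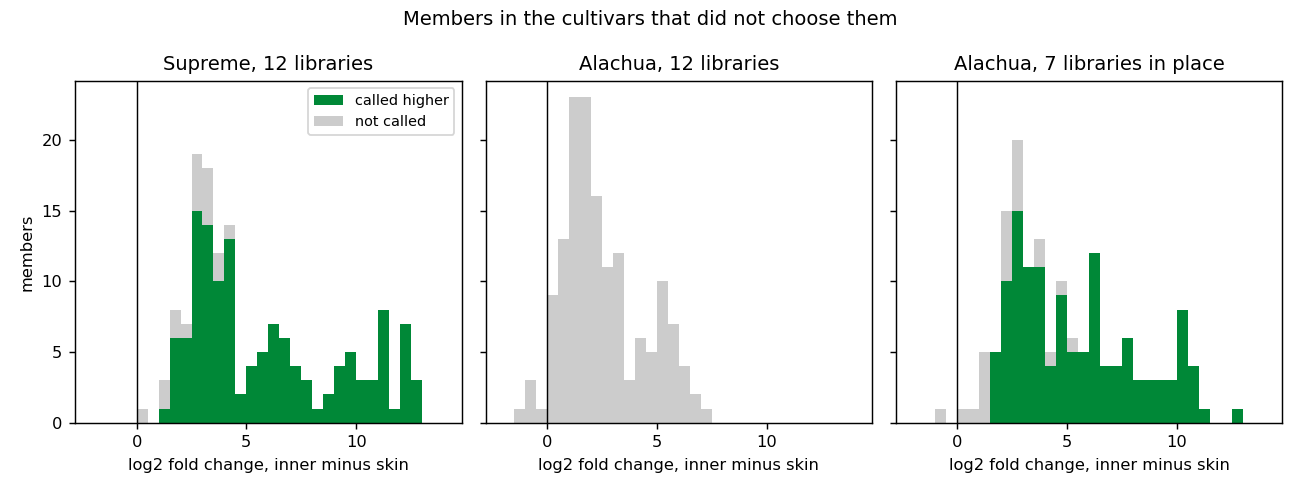
Histograms of the fitted log2 fold change between inner layers and skin for the 150 members, in Supreme with 12 libraries, in Alachua with 12 libraries and in Alachua with the 7 libraries in place (bars count members; green, called higher; grey, not called). The libraries in place were chosen in part by the same contrast in Granny Val, which favours the pattern. The calls are 133, 0 and 127, and the medians 4.26, 2.05 and 4.32.

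That difference was tested directly, as the Alachua change minus the Supreme change. It was called in 1 member, lower in Alachua, against 0.0855% of all gene models called in either direction. By unadjusted p under 0.05 there were 44 members, against 14% of gene models, and DESeq2 called 16, against 4.38%. The median difference was -2.32 on the log2 scale. The median was -0.48 without the libraries out of place, and edgeR then called 0, with 22 at an unadjusted p under 0.05 (7.42% of gene models).

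The member that was called was evm.model.chr18.3212, which was high in the skin of Alachua. In Granny Val it stood at 0.161 to 5.29 CPM in the 6 skin libraries and at 20.4 to 64.0 CPM in the inner ones. Supreme had 9.91, 9.49 and 2.04 CPM in layer 1, 3.63, 15.5 and 5.02 CPM in layer 2, 107, 63.9 and 62.0 CPM in layer 3, and 70.1, 26.5 and 74.0 CPM in layer 4. Alachua had 48.4, 78.4 and 101 CPM in layer 1, 60.3, 32.9 and 53.1 CPM in layer 2, 72.3, 76.2 and 114 CPM in layer 3, and 48.2, 57.9 and 49.1 CPM in layer 4. Every Alachua library, whatever its layer, was thus above the lowest inner library of Supreme and above all its skin libraries. The inner minus skin difference was 3.09 in Supreme (log2, SE 0.41, adjusted p = 0.0006) and 0.19 in Alachua (SE 0.38, adjusted p = 1). The Alachua value minus the Supreme value was -2.90 (SE 0.55, adjusted p = 0.049) and lost its call in 24 of 33 alternative fits, with adjusted p up to 0.16. Among fits that left out 1 library it was kept only without Alachua layer 3 replicate 2 or 3 or Supreme layer 2 replicate 2. In the skin alone, Alachua exceeded Supreme by 3.05 on the log2 scale (SE 0.41, adjusted p = 0.0002), from 62.3 ± 24 against 7.59 ± 4.99 CPM (SD, n = 6 each). That call held in all 32 alternatives, with adjusted p up to 0.0031.

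**Figure D5:**
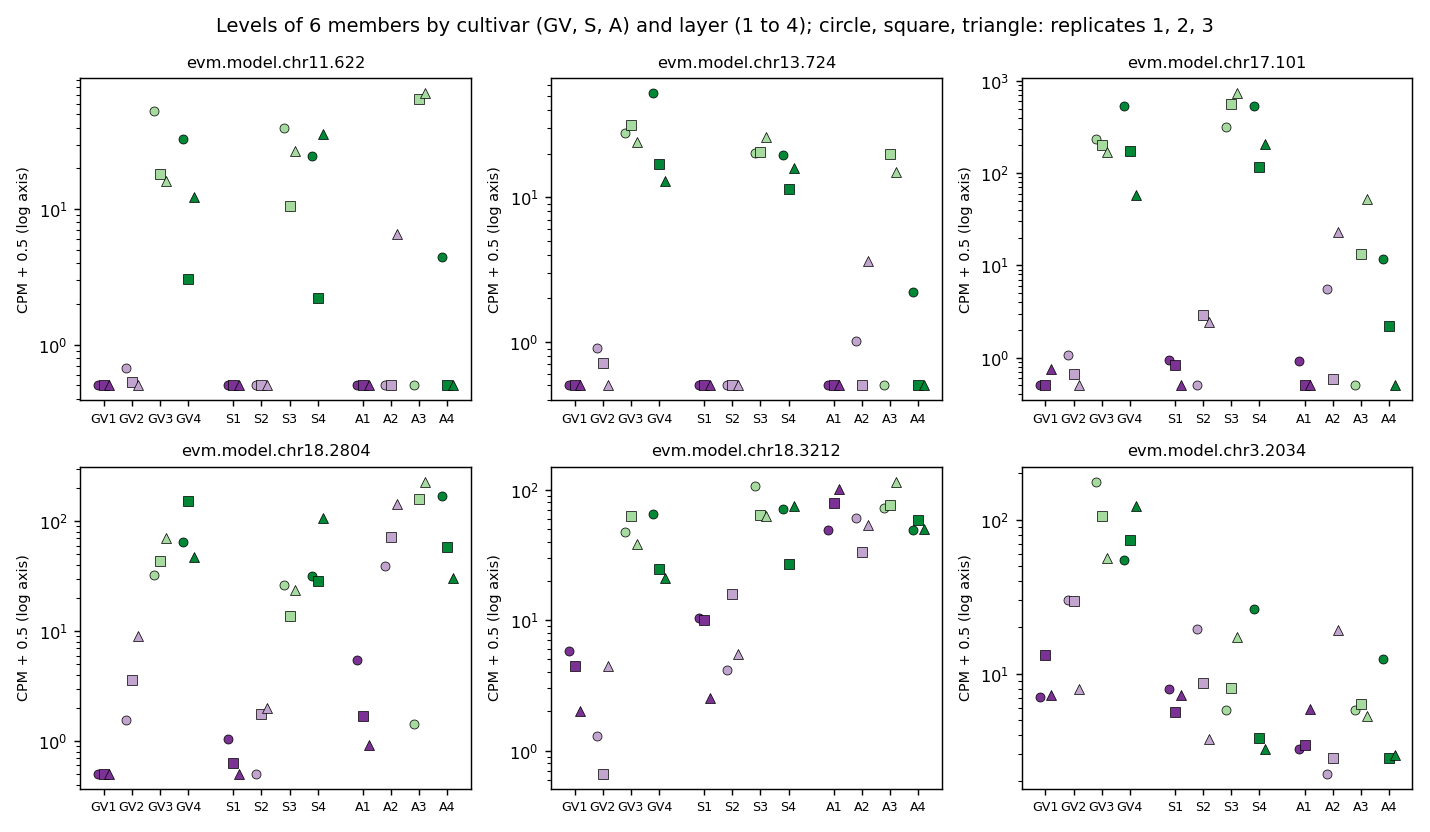
Levels of 6 members in every library as CPM + 0.5 on a log axis, by cultivar (GV, S and A for Granny Val, Supreme and Alachua) and layer, with a marker shape for each replicate. The Alachua points of evm.model.chr18.3212 lie between 32.9 and 114 CPM in all layers, and its Supreme skin points lie between 2.04 and 15.5 CPM.

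The rule also asked each inner layer to exceed each skin layer, and this was tested as 4 steps of 3 libraries against 3. With edgeR, 0 members passed all 4 steps in Supreme, against 0% of all gene models. Every step was higher with an unadjusted p under 0.05 in 99 members, against 4.48% of gene models, and DESeq2 called 66, against 1.46%. With each cultivar fitted alone, an alternative chosen after seeing the data, 77 members passed in Supreme, against 1.6%. Step by step, 3 members were called for layer 3 over layer 1 (0.144% of gene models), 0 for layer 3 over layer 2 (0.00535%), 24 for layer 4 over layer 1 (1.15%) and 0 for layer 4 over layer 2 (0.016%). At an unadjusted p under 0.05 these 2 steps over layer 2 had 120 and 110 members, against 17.7% and 21.7% of gene models. The medians of the fitted log2 fold changes were 4.79, 3.90, 4.74 and 3.77 in that order. Leaving out the libraries out of place, 75 members passed all 4 steps, against 1.18%, and 27 passed without Alachua layer 3 replicate 1 alone and 1 without Supreme layer 2 replicate 2. In Alachua 0 passed with edgeR, against 0% of gene models, as did 0 by unadjusted p (0.0214% of gene models) and 0 by DESeq2 (0.0107%), and 15 passed without the libraries out of place, against 0.186%. Its medians with all libraries were 4.82, 1.49, 3.44 and -0.36. Without the libraries out of place, the layer 4 steps of Alachua rest on replicate 1 alone.

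The 2 inner layers had been held within 2-fold of each other in Granny Val. In Supreme, 125 members had layer 3 and layer 4 means within 2-fold, 18 were higher than that in layer 3 and 7 in layer 4. The edgeR test between these layers called 0 members in Supreme, against 0% of gene models, with 0 at an unadjusted p under 0.05 (1.66% of gene models) and 0 by DESeq2 (0.492%). The median log2 difference was 0.39 in favour of layer 3. In Alachua it was 2.04 and 0 members were called, against 0.0267% of gene models, while 27 had an unadjusted p under 0.05 (8.45% of gene models) and DESeq2 called 7 (2.53%). The Alachua median was 1.52 without the libraries out of place, and edgeR again called 0, against 0.0252% of gene models, with 45 at an unadjusted p under 0.05 (5.08%). That Alachua fit compares layer 3 replicates 2 and 3 with 1 library of layer 4, replicate 1, which had 65 members on the skin side. The spread of that layer is taken from the other groups, so the 45 are not read as a difference between layers. Applying the whole rule to Supreme by its means, 129 members had at least 10 CPM in both inner layers, and 96 also met the 2-fold condition with a ratio of 3.21 or more. Ranked by the same rule, Supreme's own first 150 held 71 of the members (47.3%). In Alachua it held 3 (2.0%), and 41 (27.3%) without the libraries out of place.

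Between the skin layers, edgeR called 0 members in Supreme, against 0% of gene models, with 5 at an unadjusted p under 0.05, a share close to the 2.11% of all gene models, and 6 by DESeq2 (0.246% of gene models). The median log2 difference, layer 2 minus layer 1, was 0.48. Without the libraries out of place, which include Supreme layer 1 replicate 1 and layer 2 replicate 1, 14 members were higher in layer 2 and 3 lower, against 1.41% of gene models called in either direction. In Alachua edgeR called 0, against 0% of gene models, with 89 at an unadjusted p under 0.05 (15.7% of gene models), 53 by DESeq2 (4.86%) and a median of 3.85. Leaving out the libraries out of place, 37 were higher in layer 2 and 3 lower, against 4.35%, and without Alachua layer 3 replicate 1 alone 4 were called. Supreme layer 1 replicate 1, layer 2 replicate 1 and Alachua layer 1 replicate 1 were left out for lying nearest the other skin layer. That choice favours a difference between layers 1 and 2, so the counts without the libraries out of place are no independent check. In layer 1, the members at 0 counts numbered 43 to 57 per library in Alachua, 50 to 62 in Granny Val and 32 to 59 in Supreme.

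Last, the cultivars were compared within the skin and within the inner layers. In the inner layers 8 members were lower in Alachua than in Supreme and 0 higher, against 2.5% of gene models lower and 3.51% higher. DESeq2 called 16 in either direction, a share close to the 10.4% of all gene models, and edgeR with all 36 libraries called 13, against 6.64%. The median over members was -1.48 on the log2 scale, against -0.05 over all gene models. Without the libraries out of place these medians were -0.64 and -0.15. The count rested on single libraries, since leaving out Alachua layer 4 replicate 1 gave 34 calls, its replicates 2 and 3 gave 1 and 2, and Alachua layer 3 replicate 2 gave 3. It was 4 without Supreme layer 3 replicate 1 or 3 or layer 4 replicate 2, and 5 without Supreme layer 4 replicate 1 or 3. Without the 7 libraries out of place 4 were higher and 7 lower, against 3.62% in either direction.

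Of those lower in Alachua, evm.model.chr17.101, the third member by ratio, had 318, 560 and 738 CPM in layer 3 and 533, 115 and 208 CPM in layer 4 of Supreme. Granny Val had 234, 202 and 170 CPM in layer 3 and 530, 172 and 56.9 CPM in layer 4. Alachua had 0, 12.8 and 52.1 CPM in layer 3 and 11.1, 1.69 and 0 CPM in layer 4, so that its highest library was below every inner library of the other 2 cultivars. The fitted difference between Alachua and Supreme was -5.29 (log2, SE 1.43, adjusted p = 0.028). It was -4.31 without the libraries out of place (adjusted p = 0.048), and the call was lost without Alachua layer 3 replicate 2 (adjusted p = 0.065) or layer 4 replicate 2 (0.081) or 3 (0.062). The other was evm.model.chr16.1622, at 20.7 ± 9.99 CPM in the inner layers of Supreme and 2.24 ± 4.23 CPM in those of Alachua (SD, n = 6 each). Alachua had 0, 2.92 and 10.5 CPM in layer 3 and 0 counts in all of layer 4, whereas Supreme had 19.1, 26.2 and 25.3 CPM and 32.6, 3.51 and 17.7 CPM. Of the Alachua inner libraries, layer 3 replicate 1 and layer 4 replicates 2 and 3 were out of place. Those in place were at 2.92 and 10.5 CPM in layer 3 and 0 counts in layer 4. The adjusted p of evm.model.chr16.1622 was 0.018, and 0.051 without Alachua layer 4 replicate 2. Its fitted change rests on the groups at 0 counts and is not given.

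In the skin 4 members were higher in Alachua and 0 lower, against 1.13% of gene models higher and 1.26% lower. DESeq2 called 25 in either direction, against 5.96% of gene models, and edgeR with all 36 libraries called 11, against 2.59%. With the libraries out of place left out, 8 were higher and 6 lower, against 2.62% in either direction. Without Alachua layer 3 replicate 1 the count was 12 and without Supreme layer 1 replicate 2 it was 2. In the skin of Alachua, evm.model.chr10.1298 stood at 0.0525, 6.31 and 4.34 CPM in layer 1 and 13.9, 16.4 and 236 CPM in layer 2, the last in the library that lay nearest the inner layers. Supreme skin had at most 0.923 CPM. The fitted difference was 5.35 (log2, SE 1.35, adjusted p = 0.033), and without the libraries out of place it was 4.08 (adjusted p = 0.0043). The call was lost in 9 of 32 alternatives, with adjusted p up to 0.10: without Alachua layer 1 replicate 2 or 3, Alachua layer 2 replicate 3, or any 1 of the 6 skin libraries of Supreme. The other, evm.model.chr18.2804, had 4.93, 1.20 and 0.423 CPM in layer 1 of Alachua and 39.0, 71.8 and 143 CPM in layer 2. The skin of Supreme reached 1.51 CPM, and its inner libraries ran from 13.3 to 107 CPM. For this member, layer 2 replicates 1 and 2 of Alachua lay in that inner range. Replicate 3, the library that lay nearest the inner layers, stood above it. The difference in skin was 4.82 (log2, SE 1.07, adjusted p = 0.015), 4.49 without the libraries out of place (adjusted p = 0.0012), and it was not called without Supreme layer 1 replicate 2 (adjusted p = 0.058).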

How the data were processed

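Poly(A) RNA from 36 libraries was made into libraries with a directional kit, per the labels' protocols. The strand setting of the counting was not given in the sources used, so reads of overlapping genes on the opposite strand may be included. The deposited values are whole-number read counts per gene model, 1 table per library. The submitters' processing notes name cutadapt, STAR, SAMtools, HTSeq 0.11.2 and DESeq2 with no role or order. Neither build nor annotation is given in the sources used here. The 5 special lines of each table were left out: reads outside gene models made up 7.73% to 14.6% of a library, ambiguous reads 1.06% to 1.42% and reads without a unique position 2.36% to 3.33%. Of 26394 gene models 22565 had a count. No 2 libraries were identical (0 pairs).

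The members and lists were chosen with earlier results of these data known. CPM used library totals. Counts of the 24 Alachua and Supreme libraries were fitted with edgeR 4.0.16 in R 4.3.3 (TMM scaling, filterByExpr by group, quasi-likelihood with 8 group means and 16 residual degrees of freedom), which tested 18704 gene models. A call needed an adjusted p under 0.05 (Benjamini-Hochberg) and a 2-fold change. Alternatives were DESeq2 1.42.0, other scalings, no filter, all 36 libraries, no fold minimum, a replicate block, a covariate for whether the library name begins with a number, and leaving out libraries; fitting each cultivar alone was added after seeing the data. Leaving out the 7 libraries out of place tested 19877 gene models.

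Named genes were, per comparison, up to 2 called members higher and 2 lower with the largest change, a mean of at least 10 CPM and, between layers, no overlap of libraries. As descriptions, the 2 highest ratios, the edges of the rule and the most abundant member were added. The fits were tested on simulated counts. For Alachua inner minus skin, of 100 gene models given a change, 38 were recovered by adjusted p at 2-fold and 82 at 4-fold. These values hold for the simulated spread only.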

Additional observations from a re-analysis of the deposited data

Results flagged for a closer look

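For evm.model.chr18.3212, the inner minus skin change in Alachua minus that in Supreme was -2.90 on the log2 scale (SE 0.55, edgeR adjusted p = 0.049), by the test of the difference itself. Skin levels were 62.3 ± 24 CPM in Alachua and 7.59 ± 4.99 CPM in Supreme, and inner levels 69.7 ± 24.8 and 67.2 ± 25.7 CPM (SD, n = 6 each). Without the libraries out of place the difference was -3.04, with an adjusted p above 0.05.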

How the results depend on the processing

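Counts of called members stayed within 1.5 times under both other scalings, without the filter on low counts and without the fold minimum. DESeq2 called 26 in Alachua inner minus skin, 16 for its difference from Supreme, 66 in Supreme in all 4 steps, 7 and 53 in Alachua for layer 3 minus 4 and 2 minus 1, 6 in Supreme for layer 2 minus 1, and 16 and 25 between cultivars in inner layers and skin. With all 36 libraries fitted, 1 member passed all 4 steps in Supreme, and 13 and 11 differed between cultivars in inner layers and skin. With each cultivar fitted alone, 77 passed all 4 steps in Supreme. Without the 7 libraries out of place the counts were 127 in Alachua inner minus skin, 0 for the difference between cultivars, 15 and 75 in all 4 steps in Alachua and Supreme, 40 and 17 for layer 2 minus 1, and 14 between cultivars in skin. A covariate for names that begin with a number left 0 calls for the difference between cultivars and 113 in Supreme inner minus skin. Same-numbered libraries mostly did not deviate together (r above 0.1 in 11 of 36 pairs, from -0.70 to 0.69), and the numbers are not taken as pairs. That check included the libraries out of place, which sway the deviations of their groups, so it cannot exclude pairing. With the replicate block, 113 members were called in Supreme inner minus skin and 0 for the difference between cultivars. No block was fitted for the comparisons between cultivars, for which layers of a number are not matched. Leaving out 1 library gave 0 to 2 calls in Alachua and 106 to 141 in Supreme for inner minus skin, 0 to 1 for their difference, 0 to 0 and 0 to 27 for all 4 steps in Alachua and Supreme, 0 to 0 for layer 3 minus 4 in both, 0 to 4 and 0 to 0 for layer 2 minus 1, and 1 to 34 and 2 to 12 between cultivars in inner layers and skin. The count of 27 for Supreme was reached without Alachua layer 3 replicate 1. The choice of members kept 85 to 118 of 150 without 1 Granny Val replicate, and 140 with 5 CPM added in the ratio or with TMM-scaled CPM. The change of evm.model.chr3.2034 in Supreme ran from -0.56, without Supreme layer 4 replicate 1, to 0.73, without Supreme layer 2 replicate 1, among fits that left out 1 library, and up to 0.81 over all alternatives. The cause of these changes was not tested, beyond the smaller number of libraries in some fits. Members at 0 counts in skin are limited by depth to a level under 3 counts.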
